A study of Mus musculus with 9 samples.

Results

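The promoters described here are those at which RING1B was called in Eed-/- mouse embryonic stem cells (mESCs) and at which the Eed+/+ list holds no RING1B peak. A promoter peak was a peak on chromosomes 1 to 19 whose midpoint lay within 1000 bp of the start site of the gene the authors assigned to it, and it was selected when it shared 0 bp with every Eed+/+ peak. Of 1810 peaks in the Eed-/- list, 1781 lay on chromosomes 1 to 19, and 466 of these (26.2%) shared no base with an Eed+/+ peak. Of 1047 promoter peaks, 283 (27.0%) shared no base, each at a different gene, and the other 764 overlapped an Eed+/+ peak. These 283 are called Eed-/- only promoter peaks below. They were chosen by the presence and absence of calls, so their number describes the lists and is not a tested result. It depends on the call thresholds: 21 (8.94% of promoter peaks) were left at an FDR of at most 1%, and 3 (6.82%) with more than 100 tags after scaling to the Eed+/+ depth. The FDR cut is not simply a stricter call. It removed some peaks with a high score in the deposited list, such as Ddx4, and kept some of lower score.

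The cells were C57BL/6 mESCs, either wild type (Eed+/+) or constitutively lacking EED (Eed-/-), and were grown with feeder fibroblasts that were removed by pre-plating before chromatin was fixed with EGS and formaldehyde. RING1B-bound DNA was recovered with an antibody and sequenced from single ends. The 9 samples are 1 Eed+/+ RING1B, 3 Eed-/- RING1B, 3 input samples from Eed+/+ cells and 2 CBX7 samples that were not analysed here. The 3 Eed-/- samples are lanes combined into 1 peak list, each genotype has 1 call, and no value has a replicate error.

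RING1B is an E3 ligase of Polycomb repressive complex 1 (PRC1) that ubiquitylates histone H2A. EED is a core subunit of PRC2, the complex that methylates H3K27, and H3K27me3 is bound by the CBX subunits of canonical PRC1. Variant PRC1 complexes, which contain RYBP or YAF2, lack the Polycomb CBX subunits, and one of them carries the sequence-specific factors E2F6 and MGA. Its known target genes include germline genes that are silent in mESCs.

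Several of the Eed-/- only promoter peaks with the highest fold enrichment lay at germline genes. Whether E2F6 or MGA binds at them was not tested. Of the 14 Eed-/- only genes of the germline list described below, 10 held the letters of an E-box or E2F motif. Sycp2 and Dazl were among those that held neither. Stretches of 6 of these 10 promoters are shown, chosen because they carry the letters that E2F6 and MGA-MAX type factors are known to recognise. They are printed 5′ to 3′ along the gene's strand from mm9, with CACGTG (an E-box) and TTCCCGC (E2F, or GCGGGAA on the other strand) in capitals. The Ddx4 stretch is chr13:113442502-113442694 on the minus strand and runs from base -186 to base 6 relative to the start site. Slc25a31 is chr3:40512660-40512858 on the plus strand, and Tex12 is chr9:50369421-50369558 on the minus strand. Mael is chr1:168169053-168169124 and Sycp1 is chr3:102740072-102740157, both on the minus strand, and Zcwpw1 is chr5:138229042-138229128 on the plus strand.
Ddx4: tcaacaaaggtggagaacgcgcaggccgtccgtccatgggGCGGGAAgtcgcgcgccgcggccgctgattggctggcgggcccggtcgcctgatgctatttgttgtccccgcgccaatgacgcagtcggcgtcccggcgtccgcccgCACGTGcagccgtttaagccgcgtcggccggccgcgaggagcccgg
Slc25a31: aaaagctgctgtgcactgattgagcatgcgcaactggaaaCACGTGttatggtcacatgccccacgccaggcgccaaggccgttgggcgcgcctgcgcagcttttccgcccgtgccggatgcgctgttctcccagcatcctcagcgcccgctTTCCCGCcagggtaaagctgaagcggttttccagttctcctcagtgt
Tex12: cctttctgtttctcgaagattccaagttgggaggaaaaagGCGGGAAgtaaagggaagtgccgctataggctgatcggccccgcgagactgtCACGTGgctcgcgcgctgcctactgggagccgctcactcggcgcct
Mael: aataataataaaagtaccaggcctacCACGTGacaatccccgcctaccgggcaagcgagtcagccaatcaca
Sycp1: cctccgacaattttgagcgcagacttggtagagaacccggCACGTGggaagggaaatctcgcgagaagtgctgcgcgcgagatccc
Zcwpw1: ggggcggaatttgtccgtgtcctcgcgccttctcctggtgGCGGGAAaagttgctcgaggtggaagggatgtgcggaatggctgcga

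Fold enrichment is the ratio of tags in a peak to the local background that MACS estimated, and tags per kb is the number of tags in a peak divided by its width. No input from Eed-/- cells was among the samples, so Eed-/- fold enrichments could not be set against an input of the same genotype. Sycp2, a component of the axis of meiotic chromosomes, had the highest fold enrichment of the Eed-/- only promoter peaks, 12.4 with 218 tags over 1501 bp (145 tags per kb). Gm129 followed at 12.4 with 264 tags over 1627 bp, and its 162 tags per kb was the highest density among the 283. Ddx4, a germ cell RNA helicase, had a fold enrichment of 11.8 with 206 tags, and Zcwpw1, a meiotic reader of histone methylation, had 11.2 with 229 tags. 4921515J06Rik had 10.2, Mael, which acts in transposon silencing in the germline, had 9.67, and Efha1 had 8.73. Dazl, a germ cell RNA-binding protein, had 8.34, Slc25a31, a testis ADP/ATP carrier, had 8.05, and Adamts18 had 7.88. Thus 6 of these 10 peaks lay at genes of the germline list. Among all 1047 promoter peaks, 6 of the 10 with the highest fold enrichment were Eed-/- only. This share was 17 of the first 100 (17.0%, exact 95% binomial interval 10.2 to 25.8%), against 27.0% of all promoter peaks.

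**Figure D1:**
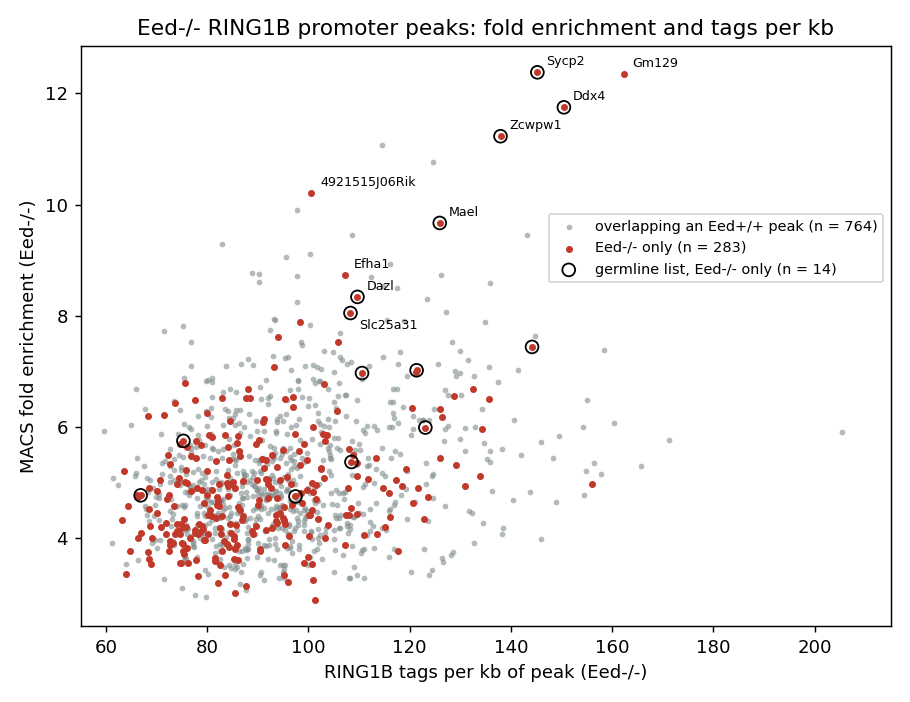
Fold enrichment (vertical axis, ratio) against tags per kb (horizontal axis) in Eed-/- cells for each Eed-/- promoter peak. Red points are the 283 Eed-/- only peaks, grey points the 764 overlapping peaks, and circles the 14 Eed-/- only peaks of the germline list. Sycp2, Gm129, Ddx4 and Zcwpw1 stand above 11 on the vertical axis, and most red points lie within the grey ones.

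The 5 highest of the overlapping promoter peaks were Kcnk13 (fold enrichment 11.1), Nkx2-4 (10.8), Nr2f2 (9.91), Dock3 (9.45) and Hoxd11 (9.45). In Eed+/+ cells the peaks they overlapped had fold enrichments between 18.6 (Dock3) and 68.4 (Nr2f2). The highest Eed-/- only values are therefore as high as the highest Eed-/- values at promoters that also carried an Eed+/+ peak.

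Over all 283, Eed-/- only promoter peaks were narrower and held fewer tags than overlapping ones. Their median width was 1716 bp (95% order-statistic interval 1679 to 1795 bp), against 2283 bp (2221 to 2340 bp) for the 764 overlapping peaks. The median number of tags was 158 (152 to 167), against 216.5 (210.0 to 227). These intervals cover counting error over peaks only.

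Per kb the classes were closer. The median was 87.0 tags per kb (85.3 to 91.3) for the Eed-/- only peaks and 93.6 (92.4 to 95.2) for the overlapping peaks, with ranges of 63.2 to 162 and 59.7 to 205. The median fold enrichment was 4.75 (4.58 to 4.90) against 4.96 (4.84 to 5.05). Among peaks with an FDR of at most 1%, the order of these last measures turned: 21 Eed-/- only peaks had a median of 121 tags per kb and a fold enrichment of 7.02, and 214 overlapping peaks had 105 tags per kb and 6.045. The cut removed peaks of high score, such as Ddx4 (783.88, FDR 1.82%) and the overlapping En2 (819.84, 1.96%). It kept peaks of lower score, such as Adamts18 (275.46, 0.8%). The part of this in the turned order was not tested.

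**Figure D2:**
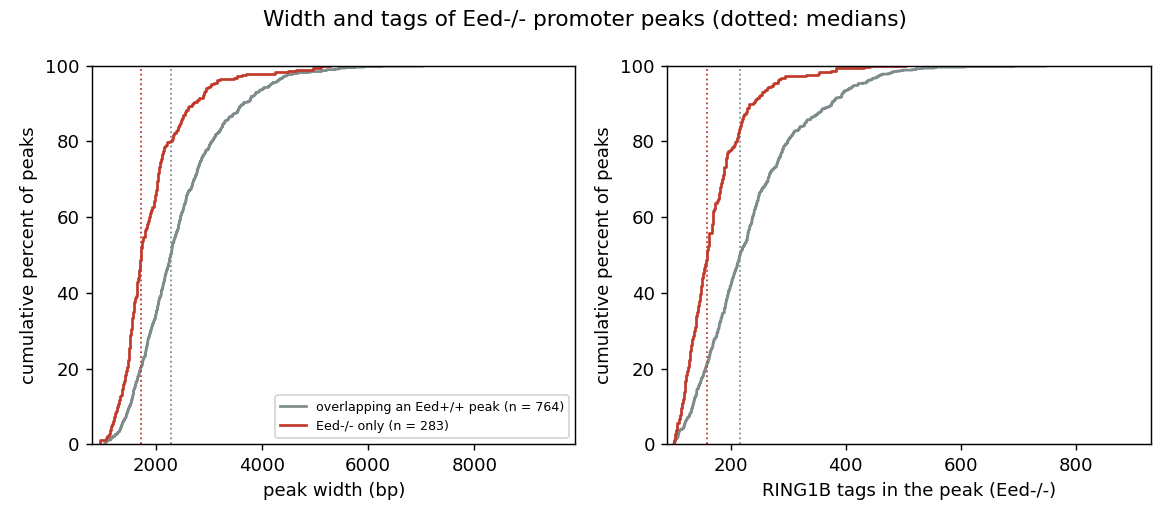
Cumulative percent of peaks (vertical axes) by peak width in bp (left) and by number of tags (right) for Eed-/- only (red) and overlapping (grey) promoter peaks in the Eed-/- list. Dotted lines mark the medians, 1716 against 2283 bp and 158 against 216.5 tags.

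The ranking by tags per kb shared some of these genes and added others. After Gm129, the densest peaks lay at Pdxp (156 tags per kb, fold enrichment 4.97), Ddx4 (150.5), Sycp2 (145), Tex12 (144) and Zcwpw1 (138). Nhlrc1 had 136, Dmrtc2, a germ cell factor of the DMRT family, 134, Tcf15, a mesodermal bHLH factor, 134, and Pogk 132. The most tags and the greatest widths were found at other genes. Trpm8, a cold-sensing ion channel, had 503 tags over 5281 bp (chromosome 1, 90200223 to 90205503) and lay on no CpG island. Tsc22d1 had 442 tags over 5107 bp, Foxo3, a forkhead factor, 432 over 4964 bp, and Hes6, a bHLH factor, 383 over 4244 bp. Ptprs, a receptor tyrosine phosphatase, had 383 tags over 4631 bp and Mtvr2 375 over 5115 bp. Fold enrichment at these 6 wide peaks was between 3.91 (Mtvr2) and 5.48 (Tsc22d1). The lowest fold enrichment of the 283 was 2.89, at Pkp4.

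The absence of an Eed+/+ peak has to be read with the depth of the lists. Every peak in either list held at least 101 tags, and the Eed-/- immunoprecipitate held 4.18 times as many mapped tags as the Eed+/+ one. A region of equal signal per mapped tag would need 419 tags in the Eed-/- list to pass the same minimum in Eed+/+ cells. Of the 283 Eed-/- only peaks, 3 (1.06%) reached this number, namely Trpm8, Tsc22d1 and Foxo3, as did 41 of 764 overlapping peaks (5.37%). The summits of these 3 wide peaks lay at -2226 bp (Trpm8), -1659 bp (Tsc22d1) and -1813 bp (Foxo3) from the start site. They met the promoter limit by their midpoints. For the other 280, a signal in Eed+/+ cells equal to that in Eed-/- cells would have fallen below the tag minimum, so that their absence from the Eed+/+ list does not show a lower signal there.

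The shortest overlap among the 764 peaks was 1033 bp (Dscam), followed by Pde4a (1050 bp) and T (1057 bp), and in 464 of them (60.7%) the Eed+/+ peak contained the Eed-/- peak whole. Many were unequal in width: 128 of the 764 shared under 50% of the wider peak, and in 124 of these the Eed-/- peak lay whole inside the Eed+/+ one. The nearest Eed+/+ peak to an Eed-/- only peak lay 1050 bp away, at Repin1, followed by Icam5 (1204 bp) and Rgmb (2592 bp). Sycp2, the peak of highest fold enrichment, came next with a gap of 4683 bp. The median gap was 322208 bp, and 32 of 283 gaps (11.3%) were at most 50000 bp. At the distance limit, the members farthest from their start site were Socs3 (979 bp), Anp32b (966 bp) and Jub (966 bp). The nearest excluded peaks were those of Kcnq3 (-1001 bp), Bloc1s3 (1014 bp) and Zswim6 (-1046 bp).

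Most Eed-/- only promoter peaks sat over the start of the gene. The start site lay inside the peak in 271 of 283 (95.8%), and the summit lay downstream of it in 212 (74.9%), against 591 of 764 (77.4%) for overlapping peaks. The median distance from start site to summit was 251 bp (190 to 280 bp) downstream, against 316 bp (262 to 350 bp). The summit was within 500 bp of the start site in 202 of 283 (71.4%, 65.7 to 76.6%) and in 445 of 764 overlapping peaks (58.2%, 54.7 to 61.8%). A divergent protein-coding gene started within 1000 bp upstream at 15 of 283 promoters (5.30%) and at 20 of 764 (2.62%). Smc1b with Ribc2 and Zbtb1 with Zbtb25 are examples, chosen after their values were seen.

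CpG islands underlay nearly every one of these peaks. An island of at least 200 bp was present in 280 of 283 Eed-/- only peaks (98.9%, 96.9 to 99.8%) and in 762 of 764 overlapping peaks (99.7%). The 3 exceptions were Trpm8, Gpr133 and A530057A03Rik, with 8.14, 5.70 and 28.6 CpG dinucleotides per kb. The longest island in a peak had a median of 936 bp (888 to 990 bp), against 1142.5 bp (1089 to 1223 bp). Islands of at least 1000 bp lay in 123 of 283 (43.5%) against 482 of 764 (63.1%). CpG density was similar, with medians of 68.5 (64.2 to 72.4) and 65.5 (64.4 to 67.0) per kb.

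The deposited lists flag each peak for overlap with K4K27 regions. What these regions are and where they came from is not given in the sources used here. The flag was set for 113 of 283 Eed-/- only promoter peaks (39.9%, 34.2 to 45.9%) and for 688 of 764 overlapping ones (90.1%, 87.7 to 92.1%). In the Eed+/+ list it was set for 434 of 476 promoter peaks without an Eed-/- overlap (91.2%) and for 635 of 705 with one (90.1%). Of all 246 Eed-/- promoter peaks without the flag, 170 (69.1%) were Eed-/- only.

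Since Eed-/- only peaks held fewer tags, the flag was also read within 4 ranges of Eed-/- tag number. Among peaks of 101 to 152 tags, 56 of 127 Eed-/- only peaks (44.1%) and 119 of 138 overlapping peaks (86.2%) carried it. Among peaks of 261 to 910 tags, these were 6 of 19 (31.6%) and 219 of 241 (90.9%). In the highest range no Eed-/- only peak held more than 503 tags. The classes were set by the Eed+/+ list, and ranges of Eed-/- tags do not match them on Eed+/+ signal. The gap was present in each of the 4 tag ranges. Its size depended on the rules: the Eed-/- only share was 66.7% at an FDR of at most 1% and 56.4% when 50% of both peaks had to overlap, and the overlapping share was 75.1% when promoters were taken from annotated start sites.

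**Figure D3:**
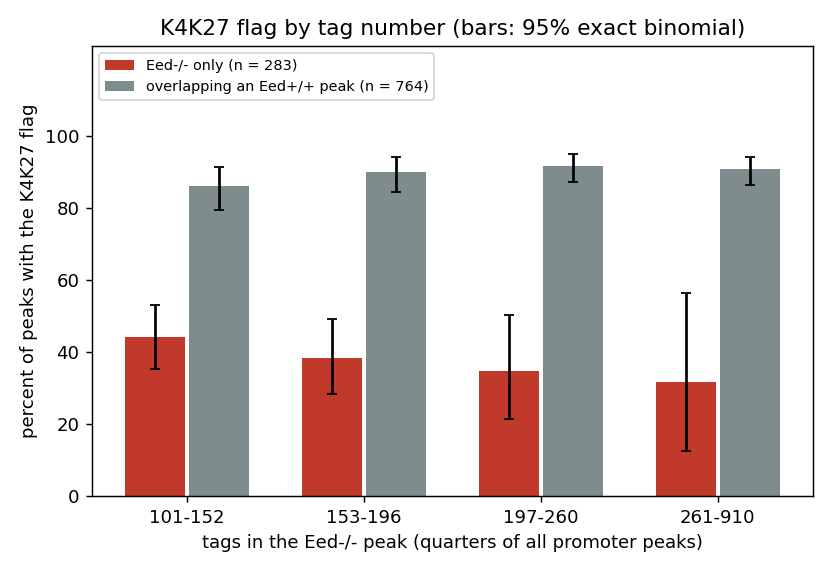
Percent of Eed-/- promoter peaks that carry the K4K27 flag (vertical axis) in 4 ranges of tag number (horizontal axis), for Eed-/- only (red) and overlapping (grey) peaks, with exact 95% binomial intervals. Red bars fall between 31.6% and 44.1%, grey bars between 86.2% and 91.6%.

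Within the Eed-/- only peaks, those without the flag were richer in CpG. The 170 peaks without it had a median of 76.9 CpG per kb (70.5 to 83.4) and a longest island of 1047.5 bp (961 to 1215 bp). The 113 peaks with it had 60.9 CpG per kb (57.9 to 64.2) and 796 bp (742 to 911 bp). Their fold enrichment was alike, with medians of 4.745 without and 4.77 with the flag, and so were their tags per kb, 89.3 and 87.0.

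**Figure D4:**
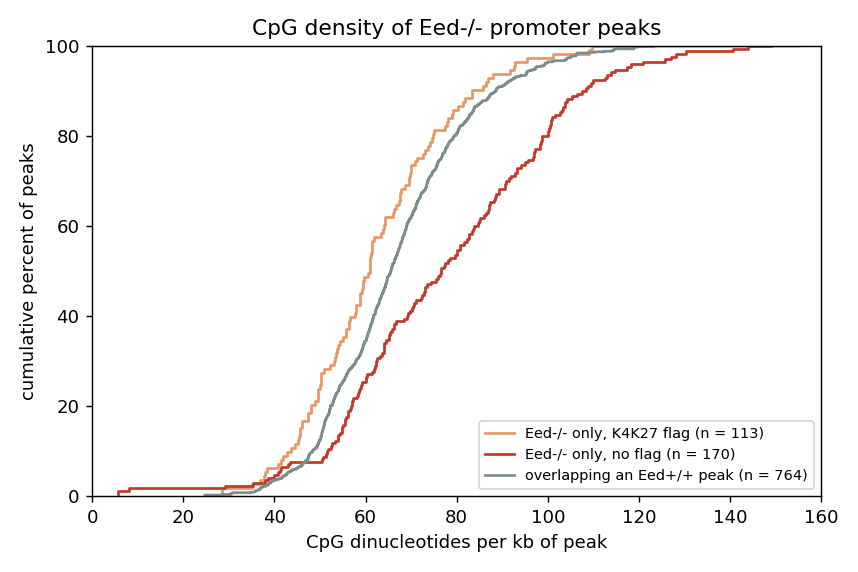
Cumulative percent of peaks (vertical axis) by CpG dinucleotides per kb of peak (horizontal axis) for Eed-/- only promoter peaks with the K4K27 flag (orange), without it (red) and overlapping peaks (grey). The red curve lies to the right over most of its range, with a median of 76.9 against 60.9 and 65.5 per kb.

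The genes were then described with 24 lists matched by gene symbol, which placed 122 of the 283 genes in at least 1 list. For each list the share that was Eed-/- only is given among all its promoter peaks in the Eed-/- list, beside 27.0% over all promoter peaks at the deposited thresholds. The lists were drawn up with earlier results of these data known, and the shares are descriptions.

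The germline and meiosis list had the highest share among lists of at least 10 promoter peaks, 14 of 18 (77.8%, 52.4 to 93.6%). Besides the genes named above, Tex12 and Sycp1, parts of the synaptonemal complex, had fold enrichments of 7.44 with 187 tags and 7.02 with 184 tags. The remaining members were Mov10l1, a piRNA helicase (6.97), Spata22 (5.99), the meiotic cohesin Smc1b (5.75), Tcfl5 (5.37), Tdrd1 (4.77) and Ybx2 (4.75). The median fold enrichment of the 14 was 7.23, against 4.75 over all 283, and their median density was 116 tags per kb. The K4K27 flag was set for 7 of 14. The 4 genes of this list with an Eed+/+ peak were Lhx8, Boll, Cpeb1 and Tdrd6, with fold enrichments of 5.13 to 6.72 in Eed-/- cells. The share depends on which symbols the list holds: Hsf5 (7.37), Sox30 (7.10) and Dmrt1 (7.09), germ cell genes outside it that were named after their values were seen, also overlapped an Eed+/+ peak.

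Feedback inhibitors of cytokine and receptor tyrosine kinase signalling came next, with 7 of 10 (70.0%, 34.8 to 93.3%). The Socs genes encode inhibitors of JAK-STAT signalling. Socs3 had 223 tags at a fold enrichment of 5.59, Socs1 136 tags at 4.83 and Socs2 265 tags at 4.45. The MAP kinase phosphatases Dusp2 and Dusp6 had 232 tags at 5.44 and 155 tags at 5.05. Spry1 and Spred1, inhibitors of the Ras-ERK pathway, had 131 tags at 4.50 and 192 tags at 4.26. Their median fold enrichment was 4.83, near that of all 283, and Dusp7, Dusp26 and Dusp4 were the 3 with an Eed+/+ overlap.

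Ubiquitin ligases and proteases contributed 11 of 19 (57.9%, 33.5 to 79.7%), among them the adaptor Klhl22 (fold enrichment 6.98), Trim44 (6.56), the proteases Usp43 (6.43) and Usp47, and Rnf130 (5.70). Chromatin and Polycomb genes contributed 7 of 13 (53.8%, 25.1 to 80.8%). They were the histone deacetylase Hdac2 (6.35), the remodeller Chd7 (5.85), the arginine methyltransferase Prmt8 (5.13), the histone methyltransferase Setd7 (5.12), the DNA methyltransferase Dnmt3a (4.37), the macroH2A gene H2afy2 (3.90) and Rybp (3.89), a subunit of variant PRC1. E2f6 (6.33, 156 tags) and Mga (6.28, 182 tags), which encode subunits of a variant PRC1, were Eed-/- only promoter peaks as well. Mga lies in none of the lists and was named after its values were seen.

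**Figure D5:**
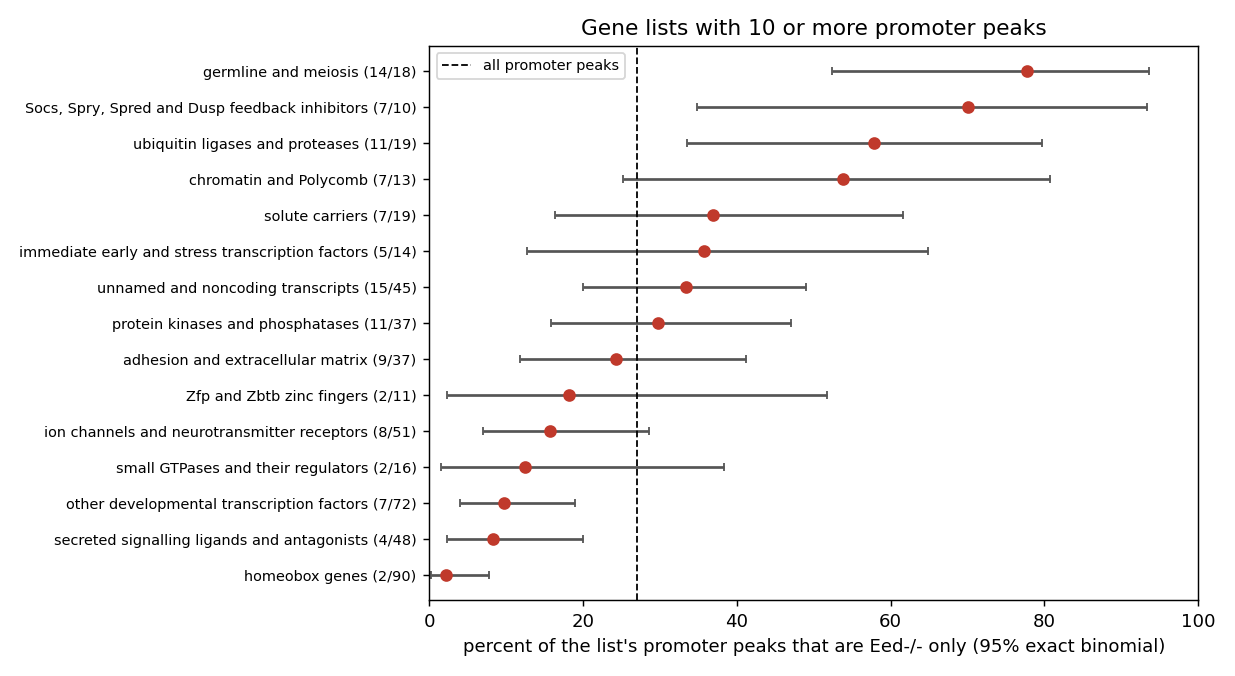
Percent of each list's promoter peaks that were Eed-/- only (horizontal axis) with exact 95% binomial intervals, for the 15 lists with at least 10 promoter peaks in the Eed-/- list. Counts stand in brackets and the dashed line marks 27.0%, the share over all promoter peaks. Germline genes lie at 77.8% and homeobox genes at 2.22%.

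Developmental regulators were at the other end. Of 90 homeobox gene promoter peaks 2 were Eed-/- only (2.22%, 0.27 to 7.80%), Hhex (fold enrichment 6.78) and Zeb1 (4.84). Other developmental transcription factors gave 7 of 72 (9.72%), including Dmrtc2 (5.97), Tcf15 (5.11), Foxo3 (5.02) and Foxo1 (4.13). Secreted signalling ligands and antagonists gave 4 of 48 (8.33%), namely Igfbp7, Sema6d, Fgf4 and Pdgfc. Imprinted genes gave 0 of 9, with an upper 95% limit of 33.6%.

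The other lists lay between these. Ion channels and neurotransmitter receptors gave 8 of 51 (15.7%), among them Trpm8. Small GTPases and their regulators gave 2 of 16, and zinc finger genes 2 of 11 (Zfp704 and Zbtb1). Adhesion and extracellular matrix gave 9 of 37 (24.3%), including Adamts18, and Lrrc1 by a match of symbol only. Protein kinases and phosphatases gave 11 of 37 (29.7%), among them Ptpre, Ripk4 and Fyn, although Fgfrl1 and Erbb2ip match only by symbol and are not kinases. Solute carriers gave 7 of 19 (36.8%), led by Slc25a31 and Slc25a23, and immediate early and stress factors 5 of 14 (35.7%), led by Tsc22d1. Unnamed and noncoding transcripts gave 15 of 45 (33.3%), led by Gm129.

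The remaining lists held fewer than 10 promoter peaks. They gave 2 of 8 for cell cycle (E2f6 and Cdc42ep3, the latter matched only by symbol), 2 of 5 for the p53 pathway and apoptosis, 1 of 3 for DNA replication and repair, 2 of 3 for ribosome and translation, and 4 of 4 for RNA processing. Heat shock and oxidative stress gave 1 of 3 (Hspa4l). Both promoter peaks at pluripotency genes, Utf1 (185 tags, fold enrichment 4.41) and Fgf4 (193 tags, 4.30), were Eed-/- only. Of 6 promoter peaks at feeder fibroblast genes 1 was Eed-/- only, at Vim (189 tags, 4.74).

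The gene ontology processes that the authors attached to each peak gave a parallel description. At least 1 process was listed for 188 of the 283 genes and for 591 genes with an overlapping peak. The most frequent were regulation of transcription (30 genes, 15.96%), transport (29, 15.4%), transcription (28, 14.9%), multicellular organismal development (26, 13.8%) and cell differentiation (17, 9.04%). Regulation of transcription (DNA-dependent), cell adhesion, apoptosis, ion transport and protein amino acid phosphorylation followed with 16, 15, 10, 10 and 10 genes.

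Transcription and development terms took smaller shares than at overlapping promoters. DNA-dependent regulation of transcription was carried by 8.51% against 25.9%, a difference of -17.4 percentage points, regulation of transcription by 15.96% against 32.5%, and transcription by 14.9% against 26.7%. Development was carried by 13.8% against 25.2% and signal transduction by 3.19% against 13.5%. Positive and negative regulation of transcription from RNA polymerase II promoters, G-protein coupled receptor signalling, cell differentiation and nervous system development differed by -7.49, -3.94, -3.94, -3.31 and -2.85 points.

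Transport was the term with the largest excess among those carried by at least 5 of the genes, 15.4% against 10.3%, although ion transport (5.32% against 7.61%) and potassium ion transport (1.60% against 3.89%) took smaller shares. Modification-dependent protein catabolism was carried by 8 genes against 3 (4.26% against 0.508%), including Usp43, Socs3, Socs1 and Usp47. Cell adhesion (7.98% against 4.57%), oxidation reduction (4.79% against 2.03%) and chromatin modification (3.19% against 0.677%, Hdac2, Chd7, Setd7 and Whsc1) were also higher. Meiosis was carried by 5 genes (Sycp2, Mael, Sycp1 and Smc1b among them) against 1 (2.66% against 0.169%). Regulation of growth was carried by 5 against 1 (2.66% against 0.169%), and spermatogenesis by 7 against 8 (3.72% against 1.35%). Apoptosis and dephosphorylation were carried by 5.32% against 2.88% and 3.19% against 0.846%.

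The letters of 11 motifs were searched on both strands from 250 bases before to 50 bases after each start site. Over 21413 protein-coding promoters of chromosomes 1 to 19, CACGTG was found in 7.78% and TTCCCGC in 5.62%. At Eed-/- only promoter peaks these were 43 of 283 (15.2%, 11.2 to 19.9%) and 32 of 283 (11.3%, 7.86 to 15.6%), against 74 of 764 (9.69%, 7.68 to 12.0%) and 50 of 764 (6.54%, 4.90 to 8.54%) at overlapping peaks. Both motifs occurred together at 5 of 283 and 2 of 764 promoters. Ddx4, Slc25a31, Tex12 and Klhl22 were among the 5.

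The matches took larger shares among the Eed-/- only peaks of high fold enrichment. Among the first 20 Eed-/- only peaks, 9 held CACGTG (45.0%) and 7 held TTCCCGC (35.0%). Of the peaks ranked 21 to 100 these were 14 (17.5%) and 9 (11.25%), and of the last 183 they were 20 (10.9%) and 16 (8.74%). The overlapping peaks were not divided by rank, and some of high fold enrichment, such as Hoxd11 and Irx1, also held CACGTG. Several of the first 20 were germline genes, so the germline counts that follow are not a separate result. Of the 14 germline genes, 7 held CACGTG and 6 TTCCCGC, and 10 held at least 1 of them. Sycp2 and Dazl were among those that held neither. Median fold enrichment was 5.22 with CACGTG and 4.69 without it, and overlapping peaks had 5.255 and 4.93. With and without TTCCCGC it was 5.18 and 4.74, against 4.77 and 4.96 at overlapping peaks.

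GCGCATGC (NRF1) and CCGGAAGT (ETS) were rarer but differed by a larger ratio between the classes. The first was found in 5.30% of Eed-/- only (3.00 to 8.59%), 1.57% of overlapping (0.814 to 2.73%) and 3.34% of all promoters, and the second in 2.47% (1.00 to 5.03%), 0.131% (0.0033 to 0.727%) and 4.76%. TTCNNNGAA (STAT) was found in 5.65%, 2.62% and 7.89%, TGACGTCA (CRE) in 2.12%, 2.36% and 2.31%, AGGTGTGA (T-box) in 1.06%, 0.654% and 1.13%, and TGANTCA (AP-1) in 3.18%, 3.66% and 6.94%. GGGCGG (Sp) was found in 78.4%, 73.0% and 43.7%, CCAAT in 33.6%, 29.97% and 37.6%, and TATAAA in 5.65%, 7.07% and 13.5%. The windows of both peak classes were richer in G and C (medians of 69.0% and 68.7%) than those of all protein-coding promoters (55.3%), and the part of base composition in these shares was not tested.

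By chromosome, the share of promoter peaks that were Eed-/- only ran from 15 of 84 on chromosome 11 (17.9%, 10.4 to 27.7%) to 19 of 52 on chromosome 10 (36.5%, 23.6 to 51.0%). The intervals of all 19 chromosomes included 27.0%.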

How the data were processed

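The authors mapped tags uniquely to mm9 with bowtie, called peaks once per genotype with MACS (FDR below 2%, more than 100 tags) and assigned the nearest gene with CisGenome and custom scripts. Neither versions nor the control for MACS were found in the labels or methods. The deposited lists give whole tag counts, a fold enrichment ratio, an FDR in percent and a score (-10 times the log10 p-value). Deposited flags for overlap between the genotypes hold the authors' comparison and were not used. Overlap was recomputed at a minimum of 1 bp. Start sites were derived from the peak midpoint and deposited distance, and 928 of 1010 matched a GENCODE start of the gene within 200 bp. CpG islands were found in NCBIM37 (mm9) with a running score (17 per CG, -1 otherwise), then kept from 200 bp, a GC content of 50% and an observed over expected CpG of 0.6. Code was checked on simulated data. No test was run, since each genotype has 1 call. Shares carry exact binomial and medians order-statistic 95% intervals, which cover counting error only. Members, gene lists and motifs were chosen with earlier results of these data known. Genes named were the first 10 by fold enrichment and by tags per kb, the first 5 by tags and by width, up to 6 per list, up to 4 per process and 3 at each side of a threshold. The mapped-tag totals used for scaling come from the study's methods. Alternatives changed the overlap rule, promoter limit, annotation, FDR, tag minimum and island length. Python 3.11.15, numpy 2.4.6, scipy 1.17.1 and matplotlib 3.10.9 were used. Some genes that the naming rule selects are not reported here.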

Additional observations from a re-analysis of the deposited data

How the results depend on the processing

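No paired analysis was possible because each genotype has 1 peak call. With an FDR of at most 1%, 21 Eed-/- only promoter peaks were left (8.94% of promoter peaks), with medians of 1641 bp, 121 tags per kb and a fold enrichment of 7.02, and 100% on a CpG island, and the 214 overlapping ones had 2475 bp, 105 tags per kb and 6.045. This cut removed peaks of high score such as Ddx4 and En2, so it is not simply a stricter call. With more than 100 tags after scaling to the Eed+/+ depth, 3 were left (6.82%), with 5107 bp, a fold enrichment of 5.02 and 66.7% on an island, against 4155 bp, 113 tags per kb, 6.01 and 100% for 41 overlapping ones. Requiring 50% of both peaks to overlap gave 39.3% Eed-/- only and median fold enrichments of 4.97 and 4.835, so that the Eed-/- only value became the higher. A promoter limit of 500 bp gave 30.6% and 100% of overlapping peaks on an island. Annotated start sites gave a median width of 2348 bp for overlapping peaks. Islands of at least 500 bp lay in 90.8% and 94.5%. The median width was smaller for Eed-/- only peaks in 7 of 8 settings, the reported one included, and the K4K27 share, an alternative added after seeing the data, was lower in 8 of 8. The cause of these shifts was not tested.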

Other observations

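For 15 of the 283 Eed-/- only promoter peaks (5.30%), the nearest gene also carried an Eed+/+ peak elsewhere. Mga had one 23194 bp from its Eed-/- only peak, Mael one at 14583 bp, and Rybp one at 169304 bp. These genes were chosen after their values were seen.

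A further 183 Eed-/- peaks on chromosomes 1 to 19 had no Eed+/+ overlap and lay outside the promoter limit. The K4K27 flag was set for 7 of them (3.83%), against 169 of 551 overlapping peaks outside promoters (30.7%). A CpG island of at least 200 bp lay in 134 of 183 (73.2%), compared with 98.9% of the Eed-/- only promoter peaks. Their highest fold enrichments exceeded any at a promoter, 47.3 near H2-M10.4, 34.2 near Abcg3 and 25.2 near Trim56. Their median was 4.65, close to the 4.75 at promoters. The samples hold no input from Eed-/- cells, so neither these values nor those at promoters could be set against an input of the same genotype.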
